A study of Mus musculus with 37 samples.

Results

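Adult dentate gyrus from mice that overexpressed the glucocorticoid receptor throughout life was compared with dentate gyrus from mice that overexpressed it in early life only. The comparison asks what differs in the adult tissue when overexpression continues past the early period. All arrays whose titles name dentate gyrus and either period were taken, which gave 6 lifetime and 6 early-life arrays of the 37 arrays in the series. The 6 control dentate gyrus arrays of mice without overexpression serve as the reference level, and the nucleus accumbens arrays (7 lifetime, 6 early-life, 6 control), 18 of them from the same animals, show whether a difference was also seen in another region. All mice were male adult C57BL/6J animals, undisturbed and sampled in the morning. Tissue was laser-captured from 12 µm coronal sections, and the isolated RNA was amplified in successive rounds, biotin-labelled and hybridized to 1-colour arrays. Overexpression is described as a forebrain one. The promoter that drives the transgene, how and when early-life overexpression ended, the age in days, the litter and the hybridization batch are not given in the sources used here. A difference between the groups can therefore not be told apart from a difference in any of these. No label says that the animals of a group came from separate litters, so p-values measure the spread between these arrays.

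The glucocorticoid receptor, encoded by Nr3c1, is a hormone-activated transcription factor that binds corticosterone in rodents, moves to the nucleus and raises or lowers transcription of its target genes. The dentate gyrus is the entry station of the hippocampal circuit. Its granule cells carry both glucocorticoid and mineralocorticoid receptors, and new granule cells are born there in adulthood under the influence of stress hormones.

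Nr3c1 itself had log2 signals of 8.01, 8.25 and 8.49 (lowest, median and highest of 6 arrays) in the early group and 8.14, 8.36 and 8.65 in the lifetime group. The ranges overlapped for most of their length. The lifetime group was higher by 0.10 on the log2 scale (SE 0.10, limma adjusted p = 0.862, 4 of 6 lifetime arrays above the early mean), and a two-sided exact permutation test of the 6 against 6 values gave p = 0.361, where the smallest p possible is 0.00216. Nr3c1 signal in adult dentate gyrus thus gave no measurable difference between the periods. Mean Nr3c1 signals were 8.11 in the control, 8.26 in the early and 8.36 in the lifetime arrays. No test of either group against control is given here for Nr3c1, so these means do not show whether its signal was raised. Whether the array's probes read the transgene was not tested.

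The arrays of both groups had alike distributions. Lifetime arrays had a log2 interquartile range of 2.87 ± 0.10 (SD, n = 6) and early arrays one of 2.85 ± 0.09 (n = 6, exact permutation p = 0.706), and the array medians differed by 0.013 (exact permutation p = 0.42). The control arrays had a narrower interquartile range, with a mean of 2.71, which bears on every difference from control below. Of 27 listed granule cell markers, 24 passed the filter on low signal, against 0 of 10 choroid plexus and ependymal markers. Markers of interneurons, astrocytes, oligodendrocytes and microglia also passed the filter (13 of 16, 17 of 18, 16 of 19 and 12 of 17). The filter passed 60% of all features and 10 of 16 medium spiny neuron markers too, so these counts do not show which cells were captured. In tissue of mixed cells, fewer cells of a type and less RNA per cell cannot be told apart.

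Among 11301 features tested with limma (adjusted p under 0.05, two-sided), 155 or 1.37% differed between the lifetime and early groups. Of these, 88 (0.779%) were higher and 67 (0.593%) lower in the lifetime group, and they stood for 147 named genes and 5 features without a symbol. The difference had a median size of 0.55 on the log2 scale, and 17 features differed by more than 1, of which 10 were higher and 7 lower. All lifetime arrays lay outside the range of the early arrays for 123 of the 155, against 1.73% of all tested features. They lay above it for 71 of the 155, against 0.982% of all tested features, and below it for 52 of the 155, against 0.743%. The median difference over all tested features was 0.014. Leaving out each dentate gyrus array in turn gave between 109 and 185 features, and 96 of the 155 passed every time. These 18 fits are the leave-one-out fits below.

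**Figure D1:**
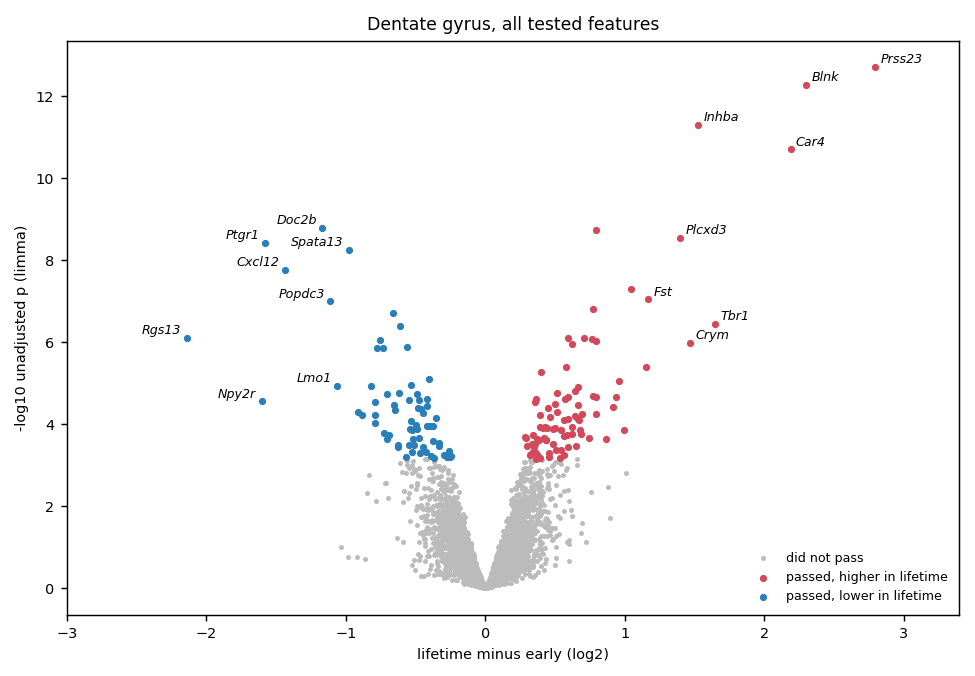
Difference between lifetime and early-life overexpression in dentate gyrus (horizontal axis, log2) against −log10 of the unadjusted limma p (vertical axis) for all 11301 tested features. Red points (88) passed as higher and blue points (67) as lower in the lifetime group. The 8 largest changes each way are named, from Prss23 at 2.80 on the right to Rgs13 at −2.14 on the left.

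The largest rises with lifetime overexpression began with secreted proteins. Prss23, a secreted serine protease, had log2 signals of 5.73, 6.10 and 6.18 (lowest, median and highest) in the early group and 8.32, 8.82 and 9.14 in the lifetime group. The groups lay far apart, with every lifetime array above every early array. The difference of 2.80 (SE 0.16, adjusted p = 2.19e-09) is a 6.95-fold higher signal. Prss23 was under the filter level in the early and control means (6.02 and 5.45, filter at 6.34) and was tested because its lifetime signal lifted its overall mean.

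Inhba, which encodes the subunit of activin A, had signals of 8.08, 8.18 and 8.51 in the early group and 9.48, 9.70 and 10.25 in the lifetime group. No array of one group reached the other, and the rise was 1.53 (SE 0.10, adjusted p = 1.91e-08, 2.88-fold). Fst, the gene of follistatin, which binds and neutralizes activin outside the cell, rose as well, by 1.17 (SE 0.14, adjusted p = 8.46e-05), from 6.05 to 6.67 in the early arrays to 7.25 to 8.06 in the lifetime arrays. A ligand and its soluble inhibitor were thus both higher after lifetime overexpression, each in 6 of 6 arrays.

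Among proteins of the cell surface, Car4, a membrane-anchored carbonic anhydrase, had signals of 6.03, 6.20 and 6.45 in the early group and 7.56, 8.59 and 8.79 in the lifetime group. The groups did not overlap, although 1 lifetime array, number 10, was lower than the other 5. Car4 rose by 2.19 (SE 0.16, adjusted p = 5.67e-08, 4.56-fold), and by 2.36 without that array. Like Prss23, it passed the low-signal filter only through the lifetime arrays.

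Kcnk2, which encodes the two-pore potassium channel TREK-1, rose by 0.91 (SE 0.17, adjusted p = 0.00723) and did not pass with the animal as a block (adjusted p = 0.120). The block fit, here and below, takes in the arrays of both regions with 1 variance per feature, so the spread of the accumbens arrays enters it. These arrays include that of early animal 5, which stood apart from the other accumbens arrays. Igsf1, an immunoglobulin superfamily membrane protein, was higher by 1.15 (adjusted p = 0.00152), but its other feature differed by 0.27 and did not pass (adjusted p = 0.250). Antxr2, a receptor for extracellular matrix proteins and for anthrax toxin, rose by 0.96 (adjusted p = 0.00294). Its control mean of 5.935 lay under the filter level and its early mean of 6.416 near it. The lifetime mean of 7.377 thus helped Antxr2 to pass the low-signal filter. Slc7a4, a member of the cationic amino acid transporter family, rose by 0.94 (adjusted p = 0.00538). None of the 4 had overlapping groups.

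Signalling genes held the second largest rise. Blnk encodes an adaptor that links tyrosine kinases to phospholipase C and is best known from B cells. Its signals were 8.44, 8.92 and 9.18 in the early group and 10.76, 11.26 and 11.46 in the lifetime group, so the lowest lifetime array was well above the highest early array. Blnk rose by 2.30 (SE 0.14, adjusted p = 3.01e-09, 4.92-fold). Plcxd3, a phosphatidylinositol-specific phospholipase C domain protein, rose by 1.40 (SE 0.14, adjusted p = 4.67e-06), and Pde4b, a phosphodiesterase that degrades cyclic AMP, by 1.05 (SE 0.12, adjusted p = 5.07e-05). Their 6 lifetime arrays were also above all 6 early arrays.

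Tbr1, a T-box transcription factor of glutamatergic neurons that is expressed in immature granule cells, had signals of 7.87, 8.45 and 8.84 in the early group and 9.40, 10.11 and 10.47 in the lifetime group. The groups were separate, and the rise was 1.65 (SE 0.22, adjusted p = 2.51e-04, 3.13-fold). Crym, a cytosolic protein that binds thyroid hormone, had signals of 7.22, 7.79 and 8.21 in the early group and 8.66, 9.26 and 9.81 in the lifetime group. It too was higher in every lifetime array, by 1.47 (SE 0.21, adjusted p = 4.93e-04, 2.77-fold).

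The remaining rises among the 15 largest were Tex15, known for its role in meiosis, with a 2-fold higher signal (adjusted p = 0.0163), and Capn3, a calcium-dependent protease, at 0.87 (adjusted p = 0.0229). For both of these, the ranges of the groups overlapped. Capn3 passed in 12 of the 18 fits that left out 1 array.

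**Figure D2:**
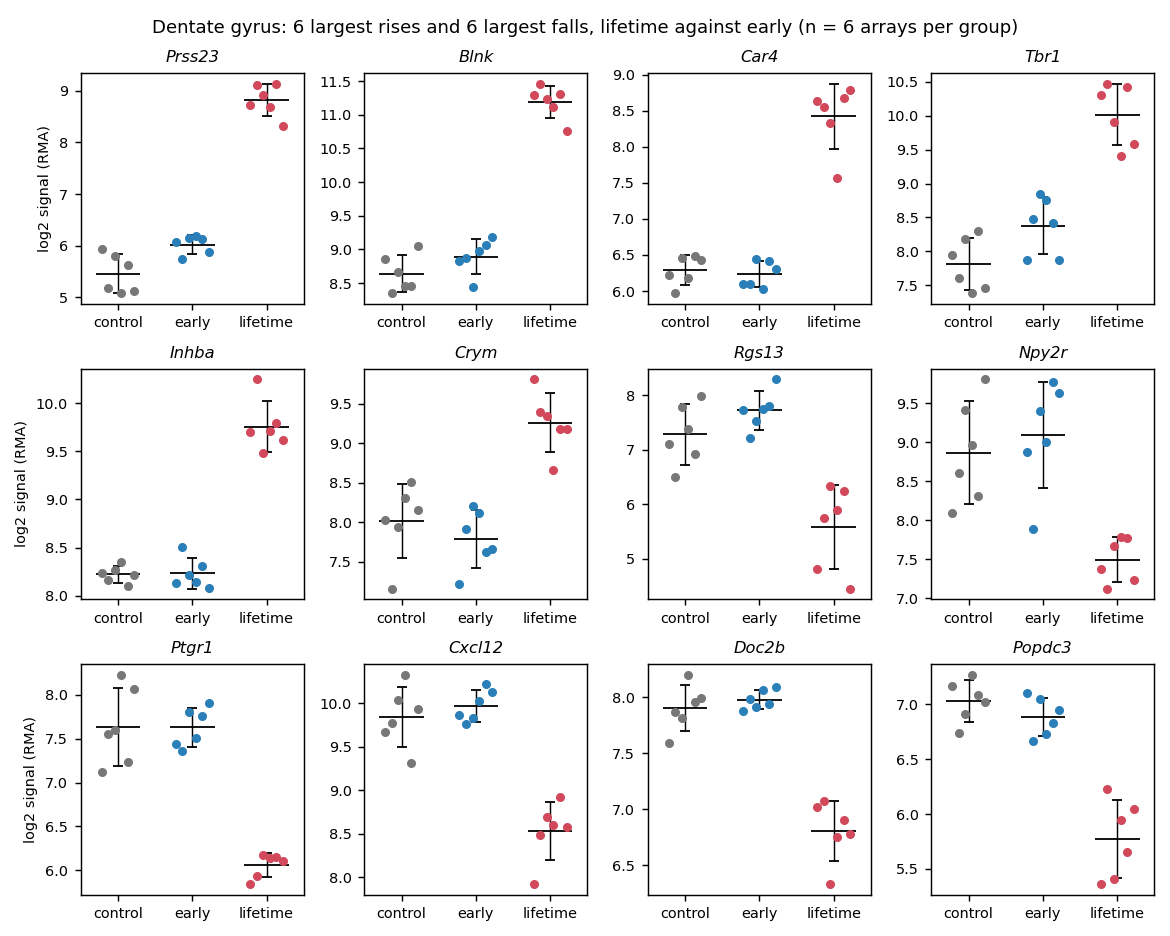
Log2 signal (vertical axes) of the 6 largest rises and 6 largest falls between early-life and lifetime overexpression in dentate gyrus, with 6 control (grey), 6 early (blue) and 6 lifetime (red) arrays each. Points are arrays, horizontal lines are group means and bars are SD. In all 12 genes the lifetime arrays lie outside the range of the early arrays.

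The largest fall was that of Rgs13, a regulator of G protein signalling that speeds the inactivation of G protein alpha subunits. Its log2 signals were 7.21, 7.74 and 8.29 in the early group and 4.45, 5.82 and 6.33 in the lifetime group. The groups did not overlap, and the lifetime arrays were spread more widely than the early ones. Rgs13 fell by 2.14 (SE 0.30, adjusted p = 4.41e-04), to a signal 4.41-fold lower, and its lifetime mean lay under the filter level, where signals are dim.

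Npy2r, a receptor for neuropeptide Y that often sits on presynaptic terminals, had signals of 7.89, 9.20 and 9.77 in the early group and 7.12, 7.52 and 7.79 in the lifetime group. The highest lifetime array came close to the lowest early array without reaching it. The fall was 1.60 (SE 0.29, adjusted p = 0.00596, 3.04-fold). Npy, which encodes the receptor's ligand, differed by 0.40 and did not pass (adjusted p = 0.529).

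Ptgr1, an enzyme that reduces and inactivates prostaglandins and leukotriene B4, had signals of 7.36, 7.63 and 7.91 in the early group and 5.84, 6.12 and 6.17 in the lifetime group. Every lifetime array was lower, with a narrow spread, and Ptgr1 fell by 1.58 (SE 0.16, adjusted p = 5.37e-06, 2.98-fold). Its lifetime mean of 6.05 lay under the filter level, where signals are dim. Car12, another membrane-bound carbonic anhydrase, fell by 0.79 (SE 0.16, adjusted p = 0.0133), whereas Car4 of the same family rose.

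Cxcl12, a chemokine that guides migrating and newborn neurons, had signals of 9.76, 9.95 and 10.22 in the early group and 7.92, 8.59 and 8.92 in the lifetime group. The groups were well apart, and the fall was 1.44 (SE 0.16, adjusted p = 1.94e-05, 2.71-fold). This holds for 1 of the 3 Cxcl12 features, which stand for different transcripts. The other two differed by 0.09 (adjusted p = 0.875) and 0.05 (adjusted p = 0.979). Adamts20, a secreted metalloprotease of the extracellular matrix, fell by 0.79 (SE 0.15, adjusted p = 0.00601).

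Doc2b, a calcium sensor for vesicle release, had signals of 7.88, 7.96 and 8.09 in the early group and 6.33, 6.84 and 7.07 in the lifetime group. The early arrays were close together and all above the lifetime arrays. Doc2b fell by 1.17 (SE 0.11, adjusted p = 3.51e-06, 2.25-fold). Popdc3, a membrane protein of the Popeye family, whose members bind cyclic AMP, had signals of 6.67, 6.89 and 7.10 in the early group and 5.36, 5.80 and 6.23 in the lifetime group. These ranges were separate, and Popdc3 fell by 1.11 (SE 0.14, adjusted p = 8.67e-05, 2.16-fold), to a lifetime mean of 5.78, under the filter level. Spata13, a guanine nucleotide exchange factor, fell by 0.98 (SE 0.10, adjusted p = 6.90e-06).

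Regulators of transcription among the 15 largest falls were Lmo1, a LIM-only cofactor (−1.06, SE 0.18, adjusted p = 0.00359), and Sfmbt2, a Polycomb group protein (−0.89, adjusted p = 0.00941). Adhesion molecules were Fat4, a very large cadherin (−0.82, adjusted p = 0.00359), Pcdh19, a delta-protocadherin (−0.77, adjusted p = 5.64e-04, but 0.118 with the animal as a block, and −0.73 in its other feature), and Clmp, an immunoglobulin superfamily adhesion protein (−0.79, adjusted p = 0.00938). Sh3bgr fell by 0.92 (adjusted p = 0.00886). Groups overlapped for Sh3bgr and Clmp and for none of the other 4.

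Of the 30 largest changes, 26 had no overlap between the groups, against 1.73% of all tested features. In each of the 18 fits that left out 1 array, 29 of the 30 passed. Capn3 was the exception. The 30 were chosen by size among features that passed in these same arrays, so both counts follow largely from that choice.

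The promoters of the 3 largest rises and 2 largest falls were searched for the glucocorticoid response element, the sequence that the receptor binds as a dimer (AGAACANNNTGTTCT), and for its half-site AGAACA, on both strands, where every full element also holds half-sites. The windows run from 250 bases before to 50 after the start of each gene in RefSeq (GRCm38.p6). Of the 5, Rgs13 alone held a half-site, starting 40 bases before the start, and none held a full element. The promoter of Blnk, the largest rise with a single start in the table (Prss23 has 7, of which none held a half-site), and that of Rgs13, the largest fall, are shown 5′ to 3′ with the half-site in capitals.
Blnk, chr19:40994172-40994471, minus strand: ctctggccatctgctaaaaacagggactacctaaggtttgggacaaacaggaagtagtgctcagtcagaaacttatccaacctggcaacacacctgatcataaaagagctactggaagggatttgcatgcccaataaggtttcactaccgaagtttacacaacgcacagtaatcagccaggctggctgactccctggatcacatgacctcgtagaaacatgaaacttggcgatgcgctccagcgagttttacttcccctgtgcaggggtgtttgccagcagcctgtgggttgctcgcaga
Rgs13, chr1:144177323-144177622, minus strand: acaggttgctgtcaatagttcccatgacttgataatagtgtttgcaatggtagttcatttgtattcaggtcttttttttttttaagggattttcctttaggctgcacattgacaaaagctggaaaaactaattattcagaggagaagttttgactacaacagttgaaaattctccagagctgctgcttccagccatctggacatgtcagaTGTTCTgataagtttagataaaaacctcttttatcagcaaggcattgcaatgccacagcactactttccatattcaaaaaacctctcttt
Over all 27025 genes of the promoter table, 21.3% held the half-site and 3 genes held the full element. Among the genes tested here it was 14.6% of the 8164 with a promoter in the table, with 7 of 61 genes higher in the lifetime group (11.5%) and 7 of 47 lower genes (14.9%). No gene that rose or fell held the full element in this window. A match in these letters is a description and says nothing about binding.

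Each group was also set against the 6 control arrays, which both differences share. By the same test, 15.3% of features differed between lifetime and control dentate gyrus and 11.4% between early and control. For several of the largest changes the early group lay close to control and the lifetime group far from it. Inhba differed from control by 0.01 in the early group (SE 0.10, adjusted p = 0.963) and by 1.53 in the lifetime group (SE 0.10, adjusted p = 1.73e-08). Car4 differed by −0.06 (adjusted p = 0.825) and 2.13 (adjusted p = 9.12e-08), and Fst by 0.04 (adjusted p = 0.849) and 1.22 (adjusted p = 2.99e-05). The early and control means of Car4 (6.23 and 6.29) lay under the filter level, and it was tested only because of its lifetime arrays. Among the falls, Ptgr1 differed by less than 0.01 in the early group (adjusted p = 0.989) and by −1.58 in the lifetime group (adjusted p = 6.93e-06), Doc2b by 0.07 (adjusted p = 0.679) and −1.10 (adjusted p = 7.47e-06), and Spata13 by 0.05 (adjusted p = 0.774) and −0.93 (adjusted p = 1.70e-05).

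A second pattern was a step in the same direction in both groups. Prss23 was above control by 0.57 in the early group (SE 0.16, adjusted p = 0.0304) and by 3.36 in the lifetime group (adjusted p = 7.16e-11). Its early and control means (6.02 and 5.45) both lay under the filter level, and it was tested only because of its lifetime arrays. The early step of Prss23 is thus one between dim signals. Kcnk2 was above control by 0.65 (SE 0.17, adjusted p = 0.0270) and 1.56 (adjusted p = 1.93e-05). For Tbr1 the values were 0.56, which did not pass (SE 0.22, adjusted p = 0.0936), and 2.21 (adjusted p = 6.93e-06).

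In the last pattern the early group was the one that stood off control. Fat4 was above control by 0.55 in the early group (SE 0.14, adjusted p = 0.0237) and differed by −0.27 in the lifetime group (adjusted p = 0.187). Car12 was above control by 0.51 (adjusted p = 0.0483) and differed by −0.28 (adjusted p = 0.226). The lifetime-to-early difference of these genes is thus for the most part a higher early level. Dsp, a desmosomal plaque protein abundant in granule cells, followed the same order, with 0.47 (adjusted p = 0.0375) in the early group and −0.10 (adjusted p = 0.648) in the lifetime group.

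**Figure D3:**
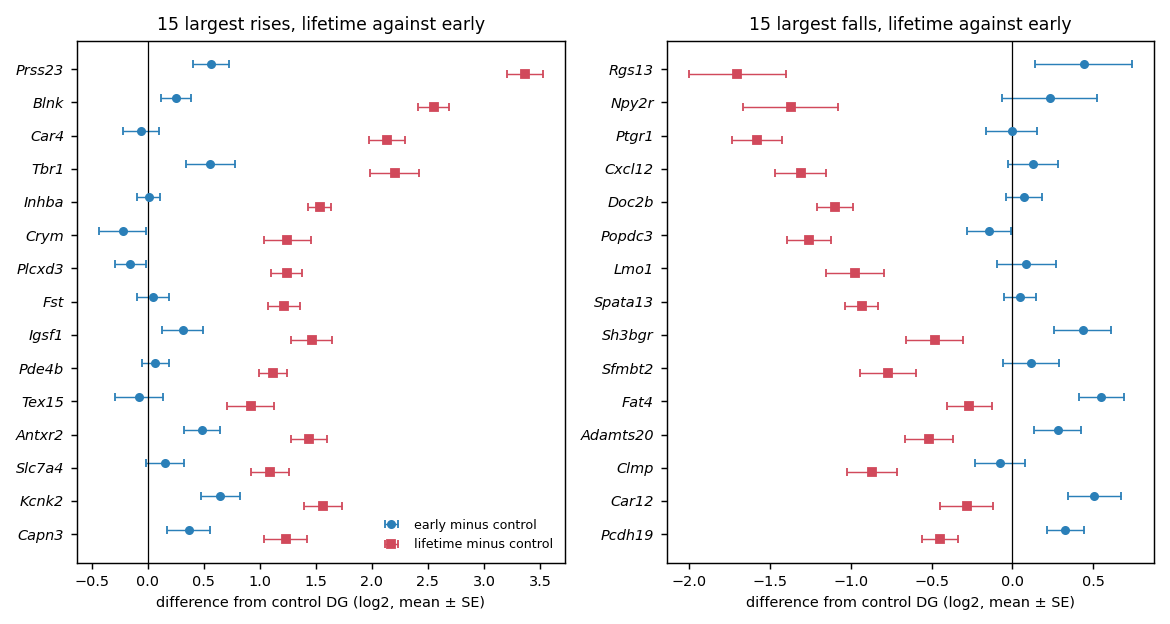
Difference from control dentate gyrus (horizontal axes, log2, mean ± SE of limma) in the early (blue circles) and lifetime (red squares) groups, for the 15 largest rises (left) and 15 largest falls (right). Both groups are set against the same 6 control arrays. The early values of Inhba and Ptgr1 sit at 0, whereas Fat4 (0.55) and Car12 (0.51) are above 0 in the early group.

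The gene lists were read by the number of members that passed, beside 1.37% of all features. Only members past the low-signal filter are counted. Of the corticosteroid receptors and their chaperones, 0 of 19 changed, with a median difference of 0.041. The closest to the threshold were the chaperones Dnajb1 (0.18, adjusted p = 0.522) and Hsp90b1 (−0.26, adjusted p = 0.650). Among genes that glucocorticoids are known to induce, 1 of 25 rose and 1 fell, with a median of 0.11 and 21 members above 0. Gadd45b, a stress-inducible regulator of DNA demethylation and growth arrest, rose by 0.50 (SE 0.10, adjusted p = 0.0155, 0.0793 with the animal as a block), and Cebpb, a leucine zipper transcription factor, fell by 0.56 (SE 0.08, adjusted p = 5.55e-04). Gadd45b lay between 7.01 and 7.27 in the early arrays and between 7.51 and 7.94 in the lifetime arrays, and Cebpb between 7.68 and 7.94 and between 6.99 and 7.37.

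In activin and TGF-beta signalling, 2 of 26 members rose, Inhba and Fst, and 1 fell, with a median of −0.011. Tgfb2, a secreted TGF-beta, fell by 0.70 (SE 0.13, adjusted p = 0.00500), from between 6.90 and 7.67 to between 6.38 and 6.78. None of the activin receptors and Smad proteins in the list passed. Of 12 members of the corticotropin-releasing hormone and stress peptide list, Npy2r fell and no member rose.

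Ion channels and receptors changed one by one. Of 37 potassium channel genes, Kcnk2 and Kcnk1, another two-pore channel (0.51, adjusted p = 0.0364, passing in 10 of 18 leave-one-out fits), rose, and Kcnip4, an auxiliary subunit of A-type channels, fell by 0.69 (adjusted p = 0.0202, 12 of 18 such fits). Of 26 sodium and calcium channel genes, Scn3b, a sodium channel beta subunit, fell by 0.45 (adjusted p = 0.0313), passed in 9 of 18 leave-one-out fits and was lost without lifetime array 10 (adjusted p = 0.0636). Of 17 glutamate receptor genes, the kainate receptor subunit Grik3 fell by 0.55 (SE 0.10, adjusted p = 0.00567). No GABA receptor gene (of 10) and no monoamine or acetylcholine receptor gene (of 10) passed. The respective medians over these lists were 0.049, 0.018, 0.042, −0.035 and −0.012.

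At the synapse, 2 of 23 postsynaptic genes rose. Homer2, a scaffold that ties metabotropic glutamate receptors to intracellular calcium stores, went from between 8.91 and 9.36 to between 9.74 and 9.97, a rise of 0.76 (SE 0.11, adjusted p = 4.41e-04). Camk4, a calcium/calmodulin-dependent kinase that acts in the nucleus, rose by 0.51 (SE 0.10, adjusted p = 0.00886). Of 32 vesicle release genes none passed, although Syt13, a synaptotagmin, did so without lifetime array 10 (0.36, adjusted p = 0.0190). Among 22 immediate early genes, Nptx2, a secreted neuronal pentraxin (0.51, SE 0.09, adjusted p = 0.00497), and Ier5 (0.38, adjusted p = 0.0449) rose, none fell, and the median was 0.139. Ier5 passed in 5 of 18 leave-one-out fits and not without lifetime array 10 (adjusted p = 0.0723).

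In intracellular signalling, Rgs13 was the 1 member of 16 regulators of G protein signalling that passed, and Dusp8, a phosphatase of MAP kinases, rose by 0.46 (adjusted p = 0.0401, passing in 7 of 18 leave-one-out fits) as the 1 of 31 in its list. Of 21 neurotrophin and growth factor genes, Cxcl12 fell and the others did not pass. Of 24 extracellular proteases and inhibitors, Prss23 passed.

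Of 24 cadherins, protocadherins and desmosomal genes, 4 fell and none rose, with a list median of 0.011. They were Fat4, Pcdh19, Dsp (−0.57, SE 0.14, adjusted p = 0.0472) and the desmosomal cadherin Dsg2 (−0.41, SE 0.07, adjusted p = 0.00279). Dsp passed in only 3 of 18 leave-one-out fits (adjusted p up to 0.112), whereas the other 3 passed in all 18. Among 42 axon guidance genes, the ephrin receptor Ephb1 (0.44, adjusted p = 0.0233, 13 of 18 fits) and the secreted semaphorin Sema3c (0.42, adjusted p = 0.0226, 15 of 18) rose and the transmembrane semaphorin Sema5b fell (−0.45, adjusted p = 0.00921). No gene of Wnt signalling (16), the circadian clock (16), heat shock (25), oxidative phosphorylation (67), cytosolic ribosomal proteins (28) or the proteasome (31) passed. Without lifetime array 10, Uqcrc1, a subunit of respiratory complex III, did (0.51, adjusted p = 0.0458). Medians were 0.101 for oxidative phosphorylation and 0.113 for ribosomal proteins, with 53 of 67 and 22 of 28 members above 0.

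**Figure D4:**
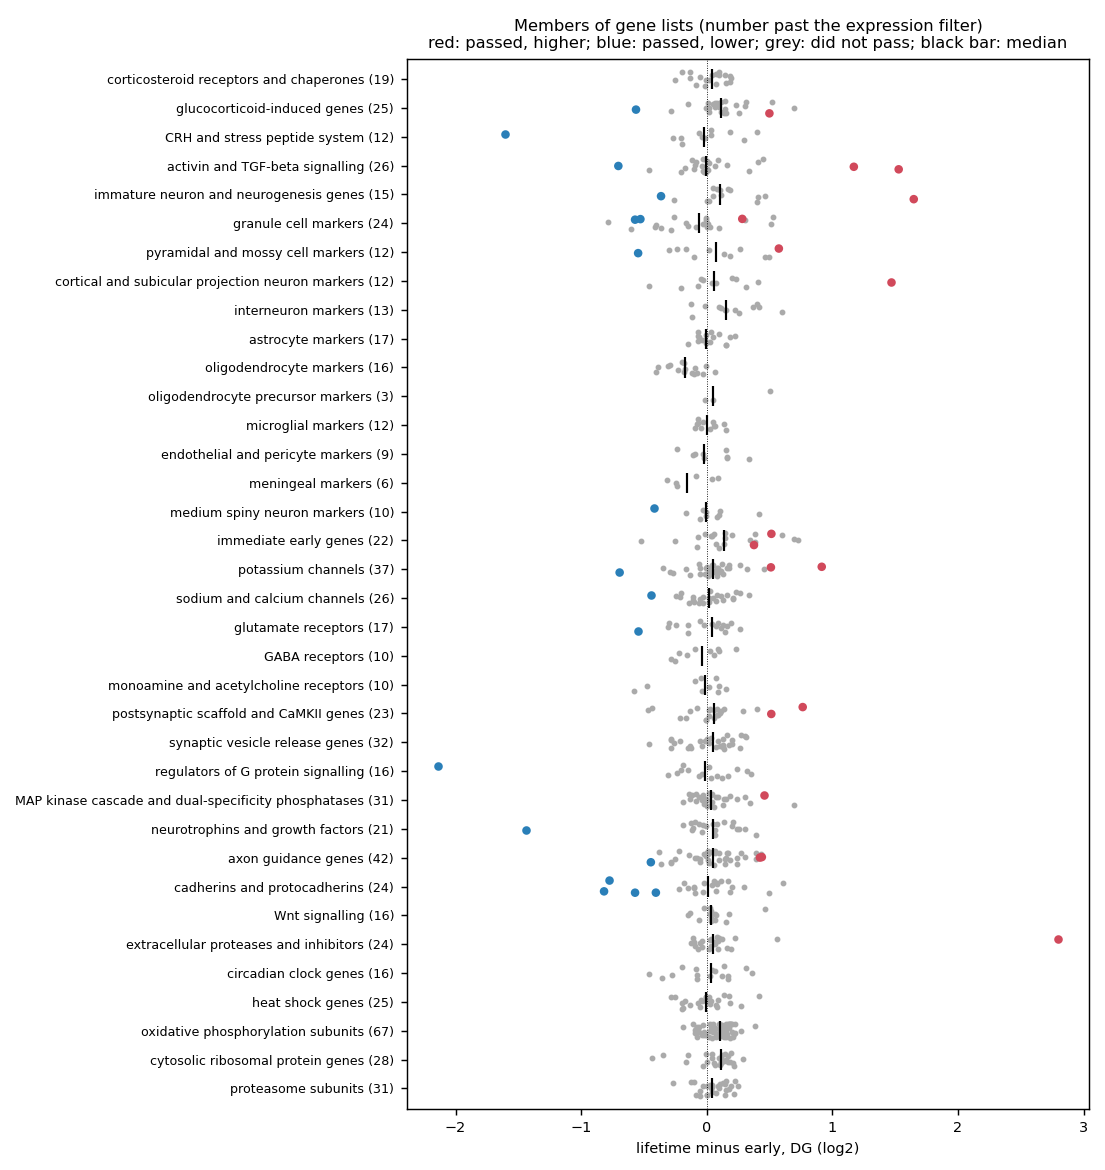
Difference between lifetime and early-life overexpression in dentate gyrus (horizontal axis, log2) for each member of each list that passed the low-signal filter, with the number of members in parentheses. Red and blue points passed as higher or lower, grey points did not pass, and black bars are list medians. Most lists hold 0 to 3 coloured points, and the cadherin list holds 4 blue ones.

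Cell type markers moved little as groups. Of 24 granule cell markers, Pdzd2, a PDZ domain protein, rose by 0.28 (adjusted p = 0.0222), and Dsp and C1ql3, a secreted synaptic C1q-like protein (−0.53, SE 0.13, adjusted p = 0.0387), fell, with a list median of −0.059 and 7 members above 0. These calls held in 12 (Pdzd2), 3 (Dsp) and 8 (C1ql3) of 18 leave-one-out fits, and Pdzd2 did not pass with the animal as a block (adjusted p = 0.194). The mean signal over the granule list (here and below, over all listed genes on the array) ran from 9.14 to 9.51 in the early arrays and from 9.07 to 9.42 in the lifetime arrays. In the list of immature neuron genes, 2 of 15 passed in opposite directions, Tbr1 and Marcksl1, an actin-regulating protein of growing neurons (−0.36, adjusted p = 0.0485), and the median was 0.108. Marcksl1 passed in 3 of 18 leave-one-out fits and not with the animal as a block (adjusted p = 0.818). The list mean was 7.38, 7.42 and 7.56 (lowest, median and highest) in the early arrays and 7.49, 7.64 and 7.69 in the lifetime arrays, with overlapping ranges.

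Of 12 pyramidal and mossy cell markers, Bok, an apoptosis regulator of the BCL-2 family, rose (0.57, SE 0.10, adjusted p = 0.00551) and Iyd, an iodotyrosine deiodinase, fell (−0.55, adjusted p = 0.0294, 10 of 18 leave-one-out fits). Of 12 cortical and subicular markers Crym alone passed. The mean level of the cortical and subicular list ran from 7.22 to 7.71 in the early arrays and from 7.21 to 7.72 in the lifetime arrays, and its part in the Crym difference was not tested. Of 10 medium spiny neuron markers, Rasd2, a small GTPase, fell by 0.42 (adjusted p = 0.0150, 0.145 with the animal as a block).

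No marker of interneurons (13), astrocytes (17), oligodendrocytes (16), oligodendrocyte precursors (3), microglia (12), endothelial cells and pericytes (9) or meninges (6) passed. The medians were 0.150 for interneurons, −0.005 for astrocytes, −0.177 for oligodendrocytes and −0.002 for microglia. The lists given here without a median had medians between −0.160 (meninges) and 0.075 (pyramidal and mossy cells), beside 0.014 over all features. Of the 16 oligodendrocyte markers only 1 was above 0, and their mean level ran from 7.69 to 8.71 in the early arrays and from 7.70 to 8.83 in the lifetime arrays. Meningeal markers reached 7.06 in early array 1, above the 6.68 of the highest lifetime array. The part of these shifts in the differences above was not tested.

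The same contrast was read in nucleus accumbens, and the difference between the regions was tested on the value of dentate gyrus minus nucleus accumbens within each of the 18 animals with both regions. One accumbens array of the early group, from animal 5, stood apart, with an array median of 6.50 and an interquartile range of 1.72. The other 18 accumbens arrays had medians of 6.13 to 6.27 and interquartile ranges of 2.20 to 2.54. The mean correlation of array 5 with the other accumbens arrays was 0.773, against 0.973 to 0.980 for each of the others. Array 5 is included unless stated otherwise. In nucleus accumbens 1 feature of 11301 (0.00885%) passed between lifetime and early overexpression, Lrrc58 (0.64, adjusted p = 0.0428), and 601 had an unadjusted limma p under 0.05. None of the 30 genes with the largest changes in dentate gyrus passed there. The difference between the regions passed for 40 features (0.354%), 23 positive and 17 negative, and for 67 without animal 5. Without lifetime animals 7, 11 or 12 the count fell to 21, 26 or 22.

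Of the 30 largest changes in dentate gyrus, 20 passed the test of the difference between regions, 10 rises and 10 falls, and 24 did so without animal 5. Since this test uses the same dentate gyrus arrays, it adds the accumbens values alone. The low-signal filter used dentate gyrus arrays alone, and accumbens signal levels are not given here. A gene with a dim signal in accumbens would also differ there by about 0, and this was not tested. Prss23 differed by −0.04 in nucleus accumbens (SE 0.10), with a difference between regions of 2.82 (SE 0.19, adjusted p = 1.05e-07). Blnk differed by −0.08 there and by 2.35 between regions (adjusted p = 2.13e-07), Inhba by −0.18 and 1.65 (adjusted p = 4.50e-07), and Ptgr1 by −0.14 and −1.50 (adjusted p = 1.64e-04). Tbr1 differed by −0.19 in accumbens, and the regions differed by 1.88 (adjusted p = 5.71e-04).

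For other genes the accumbens value changed with the array of animal 5. Crym differed by 0.66 in accumbens with that array and by 0.11 without it, and its difference between regions went from 0.73 (adjusted p = 0.676) to 1.26 (adjusted p = 0.00844) without animal 5. Pde4b differed by 0.44 and 0.14 in accumbens, and the regions by 0.61 (adjusted p = 0.579) and 0.91 (adjusted p = 0.0130). For Kcnk2 the accumbens values were 0.64 and 0.22, and the difference between regions was 0.24 (adjusted p = 0.828) and 0.75 (adjusted p = 0.0730), which did not pass either way. Pcdh19 had an accumbens value of 0.88, or 0.51 without that array, neither of which passed. Its regions differed by −1.61 (adjusted p = 0.0253), or by −1.24 (adjusted p = 7.31e-05) without animal 5, in 13 of 18 fits that left out 1 animal and not after quantile normalization (adjusted p = 0.0928).

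**Figure D5:**
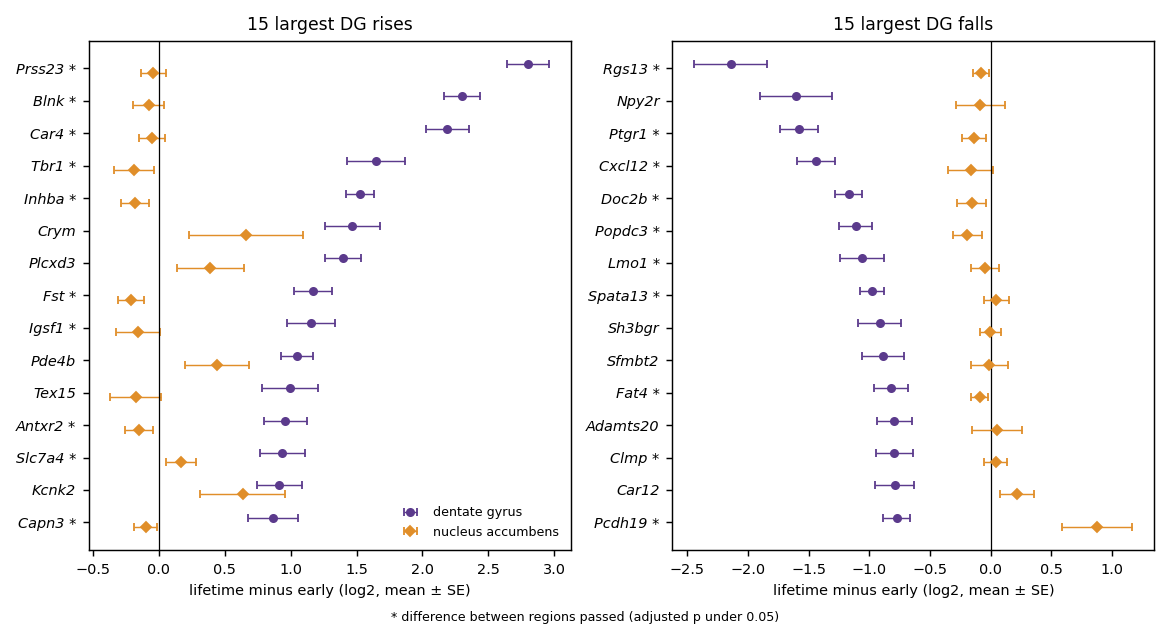
Difference between lifetime and early-life overexpression (horizontal axes, log2, mean ± SE of limma) in dentate gyrus (purple circles) and nucleus accumbens (orange diamonds) for the 15 largest dentate gyrus rises (left) and falls (right). Stars mark the 20 genes whose difference between regions passed. The accumbens values of Prss23 (−0.04) and Blnk (−0.08) lie near 0, and those of Crym (0.66) and Kcnk2 (0.64) lie above it with accumbens array 5 of the early group included (0.11 and 0.22 without it).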

How the data were processed

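The deposited values are log2 expression values, 1 per RefSeq transcript accession and array, computed by the authors. Per the submitters' processing notes the method was RMA, with no version named. The array platform and the probe grouping are not given in the sources used here. Of 24142 accessions, 5307 repeated another's values and were merged with it, which left 18835 features. Symbols came from a RefSeq table (GRCm38.p6) and were used for names alone, with 20920 accessions matched and 17260 features carrying 1 symbol. Precision is limited by the number of arrays.

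Features with a mean over the 18 dentate gyrus arrays under the 40th percentile (6.34) were left out, so 11301 were tested. The 18 arrays were fitted with limma 3.58.1 in R 4.3.3, with 3 groups sharing 1 variance per feature and Benjamini-Hochberg adjustment (threshold 0.05, to which changed, rose and fell refer). SE is limma's. Exact permutation tests used SciPy 1.17.1. The fit was tested on simulated data. Regions were compared on within-animal differences. Arrays of the 2 regions with equal title numbers were treated as 1 animal, because the series design states that both areas were collected per animal. Deviations from the group means correlated between the regions of an animal with a median of 0.151 (11 of 18 above 0.1, the lowest −0.188). For 8 of the 18 dentate gyrus arrays, the accumbens array of the same number had the highest correlation within its group. The pairing thus rests on the titles and the series design.

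Named genes are Nr3c1, the 15 largest rises and falls past the threshold (each gene once, by its most changed feature), up to 4 passing members per list or the 2 with the smallest p, and the 5 smallest adjusted p of the region test. List genes were counted by their brightest feature. Lists, members and tests were chosen with earlier results of these data known. Alternatives were the filter, quantile normalization, median centring, trended or robust variances, array weights, 1 value per gene, a fit without the control arrays, a threshold of 0.10, the interquartile range as covariate, the animal as a block, and leaving out each array. Values of single genes without the accumbens array of early animal 5 were added after seeing the data.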

Additional observations from a re-analysis of the deposited data

Results flagged for a closer look

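Within the groups of 6 arrays, 17 of 270 sets examined (6.3%) had 1 array far from the others, where chance gives about 1 in 20. A set is 1 gene, or the array median or interquartile range, in 1 group. Lifetime array 10 was such an array for 7 genes. It was low for Car4 (7.56, the others 8.33 to 8.79), Slc7a4 (8.31, the others 8.91 to 9.20), Car12 (8.33, the others 8.89 to 9.07), Dsp (10.75, the others 11.27 to 11.50), Bok (9.98, the others 10.21 to 10.34) and Psmd3, a proteasome subunit (8.92, the others 9.17 to 9.23), and high for Gabrb2, a GABA receptor subunit (10.50, the others 9.99 to 10.15). Without it Car4, Slc7a4, Car12 and Bok still passed (2.36, 1.06, −0.68 and 0.62), and Dsp did not (−0.46, adjusted p = 0.0695), which failed in 15 of the 18 leave-one-out fits. Scn3b, Ier5 and Marcksl1 were also lost without it (adjusted p = 0.0636, 0.0723 and 0.0854).

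Early array 1 was low for Car12 (9.21), Gabrb1 (12.17) and Syt13 (9.0), a synaptotagmin. Other single arrays were low for Plcxd3 (lifetime 7, 8.66) and Tex15 (lifetime 12, 7.58) and high for Pdzd2 (early 3, 7.80) and Slc4a4, a bicarbonate transporter of astrocytes (lifetime 9, 10.36). Among the controls, array 14 was high for Nptx2 (7.98) and array 18 for Uqcrc1, a subunit of respiratory complex III (9.67), and Psmd3 (9.42).

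For 25 genes named here, the lifetime minus early difference itself differed between dentate gyrus and nucleus accumbens (limma on within-animal differences, adjusted p under 0.05). The dentate gyrus minus accumbens value was positive for Prss23 (2.82), Blnk (2.35), Car4 (2.24), Tbr1 (1.88), Inhba (1.65), Igsf1 (1.43), Fst (1.38), Antxr2 (1.09), Capn3 (0.98), Slc7a4 (0.83) and Bok (0.55). It was negative for Rgs13 (−2.07), Pcdh19 (−1.61), Ptgr1 (−1.50), Cxcl12 (−1.29), Doc2b (−1.06), Spata13 (−1.06), Lmo1 (−1.01), Popdc3 (−0.95), Clmp (−0.83), Fat4 (−0.76), Tgfb2 (−0.73), Grik3 (−0.64) and Cebpb (−0.51). Hspa1a, a heat shock protein, also differed between regions (0.95), with 0.41 in dentate gyrus and −0.50 in accumbens, neither of which passed. When 1 animal was left out, Clmp passed in 4 of 18 fits, Slc7a4 in 5, Bok in 7, Fat4 and Cebpb in 8. Tgfb2 passed in 9, Cxcl12 in 10, Lmo1 and Grik3 in 11, Antxr2 and Pcdh19 in 13, Capn3 in 17, the others in all 18. After quantile normalization, Prss23, Blnk, Car4, Tbr1, Inhba, Fst, Rgs13, Ptgr1, Popdc3, Lmo1, Spata13 and Cebpb still passed, the others not.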

How the results depend on the processing

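The count of 155 features in dentate gyrus became 433 with array weights and 240 at an adjusted p of 0.10, and ran from 109 to 185 when 1 array was left out. With a replicate block that pairs the regions of each animal, 144 features passed, of which 109 were among the 155. The correlation within animals in that fit was 0.06, and its variance per feature is shared by the arrays of both regions. The remaining settings gave 121 to 197. Of the 53 named genes that passed, 6 did not pass with the block (Kcnk2, Pcdh19, Gadd45b, Marcksl1, Pdzd2 and Rasd2), 5 with no filter, 3 after median centring, 2 without the control arrays, and 1 each after quantile normalization and with array weights. Leaving out 1 array lost 115 calls of 13 of these genes, most often of Marcksl1, Dsp (15 of 18 fits each) and Ier5 (13 of 18). Kcnk2, Pcdh19, Gadd45b and Rasd2, lost with the block, passed in all 18 of these fits. The 40 features of the region test became 17 after quantile normalization of all arrays, when 11 of the 30 largest changes passed, 50 without the replicate block, and 21 to 67 when 1 animal was left out, with 12 of the 30 passing each time. The single accumbens feature was lost after quantile normalization (0 features), and 0 to 4 passed when 1 array was left out. The Nr3c1 difference of 0.10 ran from 0.043 to 0.145 when 1 array was left out and was 0.009 with array weights. The difference in interquartile range, 0.023, was −0.011 without lifetime array 9 and −0.002 without early array 1 (range −0.011 to 0.043). Near-zero differences that changed sign were those of Cspg4, 0.024 with array weights, 0.007 with the interquartile range as covariate, and 0.005, 0.003, 0.003, 0.028 and 0.015 without early arrays 1, 2 or 5 or lifetime arrays 9 or 10 (−0.084 to 0.028 when 1 array was left out), and of Dcn, 0.055 without early array 1 (−0.482 to 0.055). The causes were not tested. Genes near the filter level, such as Prss23, Car4, Antxr2 and Rgs13, have dim signals in at least 1 group, where signal over background limits the fold. Of the 155 features, 8 had a lifetime mean under the filter level, among them Rgs13, Ptgr1, Popdc3, Clmp, Iyd and Prokr2.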

Other observations

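Other gene groups with changes were seen after the calls were known, so they are values with no test of the group. Of 8 desmosome genes past the low-signal filter, 3 fell and none rose: Pkp2, a plakophilin of the desmosomal plaque (−0.65, SE 0.12, adjusted p = 0.00781), Dsp and Dsg2. The median over the list was −0.067. Of 9 genes of perineuronal nets and chondroitin sulfate proteoglycans, 2 rose. They were Acan, the core protein aggrecan (0.79, SE 0.15, adjusted p = 0.00926), and Ptprz1, a receptor phosphatase that carries chondroitin sulfate (0.46, adjusted p = 0.0466). Adamts20 fell, and the list median was 0.057. Of 8 carbonic anhydrases, Car4 rose and Car12 fell. Of 21 phospholipase C, protein kinase C and protein kinase D genes, Plcxd3 and Prkca (0.35, adjusted p = 0.0313) rose, and Prkd1 (−0.76, SE 0.11, adjusted p = 4.41e-04), Plcg2 (−0.47, adjusted p = 0.00567) and Plcb1 (−0.35 and −0.26 in its 2 features) fell.

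A few single genes outside the lists were also chosen after their values were seen. Syndig1, a regulator of excitatory synapse formation, rose from a mean of 8.47 to 9.26 (0.79, SE 0.08, adjusted p = 3.51e-06), and Jdp2, a leucine zipper repressor, from 10.68 to 11.45 (0.77, SE 0.10, adjusted p = 1.28e-04). Synpr, a synaptic vesicle protein, fell from 12.85 to 12.15 (−0.70, SE 0.16, adjusted p = 0.0233), where the control mean was 12.23. Ccnd2, a D-type cyclin of dividing progenitors, fell from 9.16 to 8.64 (−0.52, SE 0.12, adjusted p = 0.0233), with overlapping groups. Prokr2, a prokineticin receptor, fell from 6.65 to 6.03 (−0.62, SE 0.11, adjusted p = 0.00497), and its lifetime arrays were all below the early arrays.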
